A study of Mus musculus with 5 samples.

Results

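The genes described here encode receptor chains, a kinase, transcription factors and feedback inhibitors of the common gamma chain cytokine pathway. The 10 genes were taken by symbol from the 19726 listed per library, and all 10 were listed and tested. They are the receptor chains Il7r, Il2rb, Il2rg, Il4ra and Il21r, the kinase Jak3, the transcription factors Stat5a and Stat5b, and the STAT5-induced inhibitors Cish and Socs2. Interleukins 2, 4, 7, 9, 15 and 21 signal through receptors that share the common gamma chain, the product of Il2rg. Binding activates the kinases JAK1 and JAK3, which phosphorylate STAT proteins, mainly STAT5 for interleukins 2, 7 and 15. In CD4+ T cells this pathway is known for the survival of naive cells under interleukin-7 and for the growth of activated and regulatory cells under interleukin-2.

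Libraries of total RNA came from CD4+ T cells of MC38 tumors (n = 2, numbered 2 and 3) and of spleen (n = 3, numbered 1, 2 and 3). All samples came from wild-type C57/Bl6j mice aged 7 weeks, and MC38 is a transplantable colon carcinoma line of this strain background. Each extraction used 300000 cells, while the sources used here do not give the method of isolation or any pooling of mice. The labels do not state whether each library came from its own mouse. A p-value here reflects only how far these samples varied, a variation that may be technical.

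Values are TPM, a relative abundance per transcript length. The listed genes summed to 569309 and 596116 TPM in the tumor libraries and to 268987 to 359532 TPM in the spleen libraries. No read counts are in the files, so depth is unknown. The cell type label was checked against its markers. All 14 T cell identity genes were lower in tumor, with a median log2 change of -2.06, and their summed level was 261 and 335 TPM in tumor against 1047 to 1393 TPM in spleen. All 15 tested genes of 16 macrophage and monocyte markers were higher, with summed levels of 4480 and 5018 TPM in tumor against 16.8 to 19.3 TPM in spleen. The highest of them was Lyz2, at 1207 and 1259 TPM in tumor and 0.547 to 4.96 TPM in spleen. The tumor libraries therefore held abundant macrophage transcripts beside those of the labelled cell type. Neutrophil marker sums were also higher in tumor, at 67.0 and 72.5 TPM against 16.0 to 21.4 TPM in spleen, with 2 of 4 tested genes called higher and 1 lower. Fibroblast and endothelial marker sums were 64.5 and 76.4 TPM in tumor and 72.3 to 78.0 TPM in spleen. B cell, NK cell, CD8 T cell, dendritic cell, mast cell and tumor epithelial marker sums were at most 17.8 TPM in each library. In bulk RNA, fewer cells of a type and less RNA per cell cannot be told apart. As a background level, the 95th percentile of 1134 olfactory receptor genes was 7.59 and 10.7 TPM in tumor and 10.6 to 16.2 TPM in spleen.

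Stat5a and Stat5b are neighbouring paralogs, and their sequences are shown because reads from some stretches of one can match the other. On chromosome 11 of GRCm38, Stat5b (100780731 to 100850724, minus strand) and Stat5a (100859351 to 100885169, plus strand) lie 8626 bases apart and are transcribed away from each other. Their coding sequences, of 2391 bases for Stat5a and 2358 bases for Stat5b in the GENCODE annotation, were identical at 90.8% of 2290 aligned bases. The longest identical run was 324 bases, well beyond the read length of 75 bases. The first pair of 120-base stretches enters that run and differs at 1 base, in capitals. It lies in exon 6 of both genes, at chr11:100874003-100874122 for Stat5a and chr11:100798602-100798721 for Stat5b.
Stat5a: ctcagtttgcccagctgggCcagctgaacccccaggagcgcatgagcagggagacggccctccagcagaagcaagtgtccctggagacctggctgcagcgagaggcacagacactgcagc
Stat5b: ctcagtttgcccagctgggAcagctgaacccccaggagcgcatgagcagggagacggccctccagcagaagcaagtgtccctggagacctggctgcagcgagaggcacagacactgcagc
The other pair is the stretch of 120 aligned bases with the most differences, 33 in all, where a read tells the genes apart. It is coding sequence joined across exons 2 and 3, whose outer ends are chr11:100861382-100861756 for Stat5a and chr11:100804991-100808479 for Stat5b.
Stat5a: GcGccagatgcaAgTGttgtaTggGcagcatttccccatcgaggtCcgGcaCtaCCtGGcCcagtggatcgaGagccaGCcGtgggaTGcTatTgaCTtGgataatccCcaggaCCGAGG
Stat5b: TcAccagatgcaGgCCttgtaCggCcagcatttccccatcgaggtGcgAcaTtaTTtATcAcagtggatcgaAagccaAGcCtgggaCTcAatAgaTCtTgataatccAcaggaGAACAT
Over whole transcripts, untranslated parts included, 836 stretches of 31 bases occurred in both genes. Stretches found in any other gene were 12.3% of the 7293 of Stat5a and 15.2% of the 5535 of Stat5b.

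Sharing with other genes was also counted for the remaining members. It reached 28.7% of 31-base stretches for Il2rg (chromosome X, 101264378 to 101268255), all of them in Gm20489, a gene model that overlaps it on the same strand. It was 10.4% for Cish (chromosome 9, 107296026 to 107302784), 8.86% for Il4ra (chromosome 7, 125552120 to 125579474) and 8.29% for Jak3 (chromosome 8, 71676296 to 71690575), where Insl3 overlaps on the same strand. It was 6.55% for Socs2 (chromosome 10, 95385362 to 95417180), 1.60% for Il7r (chromosome 15, 9505788 to 9530176), 0.753% for Il21r (chromosome 7, 125603429 to 125633570) and 0 for Il2rb (chromosome 15, 78479256 to 78495271). Values of Il2rg, Stat5a and Stat5b are therefore the least certain in this respect. The sources used here do not say how shared reads were divided.

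STAT5 binds DNA at palindromes of the form TTCNNNGAA, so the 250 bases before each annotated start were searched for it. RefSeq promoter entries on GRCm38.p6 were found for 8 of the 10 genes, with 10 windows in all, and not for Il2rb or Socs2. The motif reads the same on both strands. It occurred in 1 window, that of Il7r, against 7.02% of all 32851 promoter windows of the same length. The Il7r site lies 142 to 134 bases before the RefSeq start, but inside the GENCODE gene (9505788 to 9530176), and the window holds GENCODE exon bases of Il7r. The site itself lies within no annotated coding or untranslated part of Il7r, while exons of noncoding transcripts were not checked. It is shown with 10 bases on each side, the motif in capitals (chr15:9530000-9530028, minus strand).
Il7r: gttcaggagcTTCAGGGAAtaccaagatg
A longer form with 1 more base in the spacer, TTCNNNNGAA, occurred in none of the 10 windows and in 5.85% of all windows. A match describes letters only. Exon bases of the gene itself also lay in windows of Il4ra, Jak3, Stat5a, Stat5b and Cish. The Cish window (chr9:107296409-107296658) lay wholly inside the GENCODE gene, which starts at 107296026, so bases before that start were not searched. A window without the motif therefore does not describe the sequence elsewhere around a gene.

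In the deposited TPM, higher levels in tumor were found for Il4ra, Cish, Il7r, Socs2 and Stat5a, and no gene of the 10 was called lower. Other scalings of the libraries changed these calls except those of Il4ra and Cish, as described below. The test was limma's on log2(TPM + 1), tumor minus spleen, with calls at a Benjamini-Hochberg adjusted p below 0.05 over 12979 genes. The 5 of 10 called higher compare with 40.9% of all tested genes called higher, and the 0 called lower with 18.1%. At an unadjusted p below 0.05, 6 of the 10 were higher and 1 was lower. The share of members called is thus near that of all genes. Their median log2 change was 0.53, beside 0.23 over all tested genes, with a range of -0.46 to 1.90. Tumor and spleen values did not overlap for 7 genes that were higher and 1 that was lower in tumor, against 46.6% and 23.8% of all tested genes, and 70.4% in either direction. Il7r, Il2rb, Il2rg, Il4ra and Il21r stood above the olfactory receptor background in every library.

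**Figure D1:**
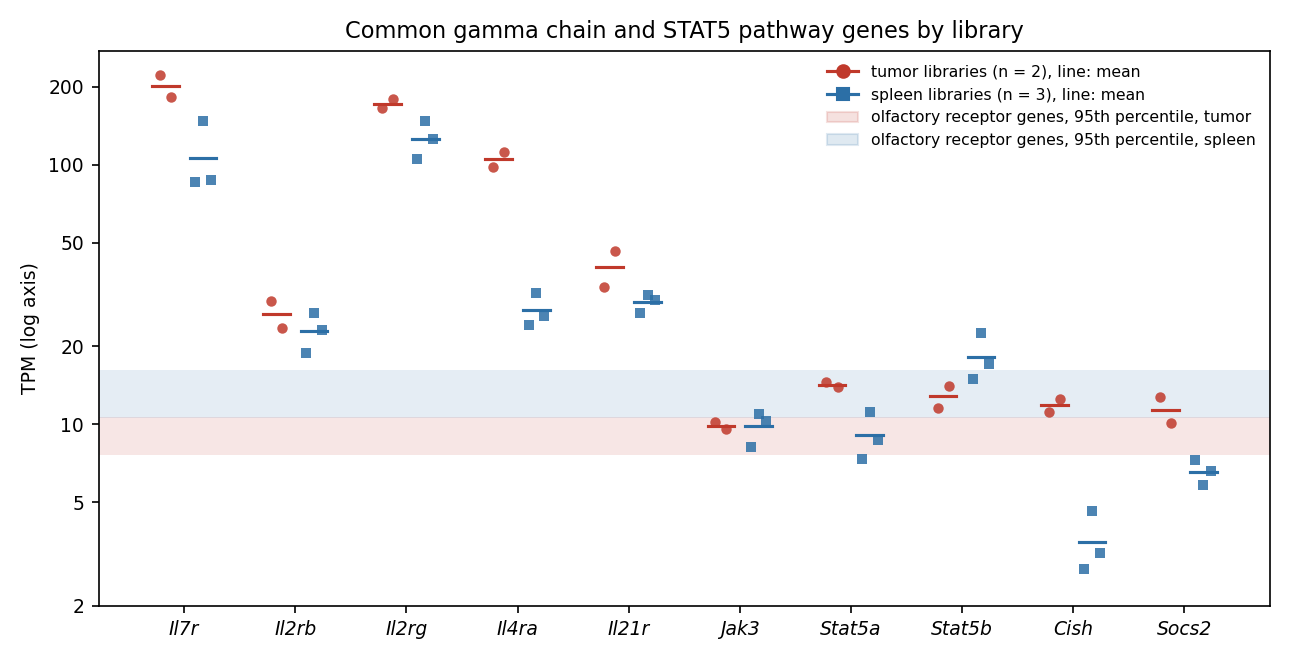
TPM of the 10 pathway genes in each library on a log axis, with tumor libraries (red circles, n = 2) left of spleen libraries (blue squares, n = 3), lines at the means and bands for the range over libraries of the olfactory receptor 95th percentile. Il4ra and Cish show the widest gap between tissues, while Jak3 and Il2rb overlap.

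Among the receptor chains, Il4ra and Il7r were higher in tumor in the deposited TPM, and Il2rg, Il21r and Il2rb were not called. Il4ra, the chain that binds interleukin-4 and is also part of the interleukin-13 receptor, had 98.3 and 112 TPM in tumor against 24.2, 32.1 and 26.1 TPM in spleen. Each tumor value was above every spleen value. The means were 105 ± 9.34 TPM in tumor (SD, n = 2) and 27.5 ± 4.13 TPM in spleen (SD, n = 3), a 3.82-fold difference. In log2 the change was 1.90 ± 0.21 (SE; limma adjusted p = 4.4e-11).

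Il7r, the interleukin-7 binding chain, had 221 and 182 TPM in tumor against 85.6, 147 and 87.2 TPM in spleen. The groups did not overlap, and spleen replicate 2 stood well above the other spleen libraries. The log2 change was 0.95 ± 0.22 (SE; limma adjusted p = 2.2e-04), a 1.89-fold difference of means. Il2rg, the shared chain itself, had 165 and 179 TPM in tumor against 105, 147 and 126 TPM in spleen. Its log2 change of 0.45 missed the threshold (limma adjusted p = 0.058, 95% interval 0.03 to 0.87), although the groups did not overlap.

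Il21r, the interleukin-21 binding chain, had 33.8 and 46.7 TPM in tumor against 26.8, 31.5 and 30.2 TPM in spleen. The lower tumor value lay just above the highest spleen value, and the gene missed the threshold (log2 change 0.42, 95% interval -0.00 to 0.85, limma adjusted p = 0.0805). Il2rb, the signalling chain for interleukins 2 and 15, had 29.9 and 23.4 TPM in tumor against 18.9, 26.8 and 23.0 TPM in spleen. These ranges overlapped, and the 95% interval of the log2 change was -0.21 to 0.64 (limma adjusted p = 0.393). Without spleen replicate 2, Il2rg and Il21r were called higher (limma adjusted p = 0.00556 and 0.0276). The macrophage marker sum of 4480 and 5018 TPM stood in the same tumor libraries, and its part in these receptor values was not tested.

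The kinase and the transcription factors were low, and the STAT5 paralogs had changes of opposite sign, of which that of Stat5a was called. Jak3, the kinase bound to the common gamma chain, had 10.2 and 9.57 TPM in tumor against 8.20, 11.0 and 10.3 TPM in spleen. The tumor values lay within the spleen range, and the 95% interval of the log2 change was -0.41 to 0.43 (limma adjusted p = 0.968). Jak3 exceeded the olfactory receptor background in 1 of 2 tumor and 1 of 3 spleen libraries. Insl3, which overlaps it, was listed at 0.652 and 0.377 TPM in tumor and 2.58 to 4.20 TPM in spleen.

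Stat5a had 14.5 and 13.9 TPM in tumor against 7.38, 11.2 and 8.71 TPM in spleen. Both tumor values were above all spleen values, and only 1 of 3 spleen values exceeded the background level. The log2 change was 0.61 ± 0.21 (SE; limma adjusted p = 0.0116). This call was lost on leaving out any library except spleen replicate 2, at adjusted p from 0.0608 to 0.0981, and with the replicate number as a block (adjusted p = 0.092). The block gives the same log2 change as leaving out spleen replicate 1, so these are not separate checks. Stat5b had 11.6 and 14.1 TPM in tumor against 15.0, 22.4 and 17.0 TPM in spleen. All tumor values were below all spleen values, by a narrow gap. Its log2 change of -0.46 missed the threshold (limma adjusted p = 0.0612, 95% interval -0.89 to -0.03), and it was called lower without spleen replicate 1 (adjusted p = 0.0226).

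Both STAT5-induced inhibitors were higher in tumor in the deposited TPM, but for Socs2 this depended on the scaling of the libraries, described below. Cish, an SH2 protein that binds cytokine receptors and dampens STAT5 signalling, had 11.2 and 12.5 TPM in tumor against 2.78, 4.64 and 3.18 TPM in spleen. The groups were far apart, and all 3 spleen values lay under the olfactory receptor background. The means were 11.8 ± 0.919 TPM in tumor (SD, n = 2) and 3.53 ± 0.977 TPM in spleen (SD, n = 3). The log2 change was 1.52 ± 0.21 (SE, adjusted p by limma 2.3e-08). Socs2, a related inhibitor best known for restraining growth hormone signalling, had 12.7 and 10.1 TPM in tumor against 7.26, 5.82 and 6.61 TPM in spleen. The groups did not overlap, but only 1 of 5 values exceeded the background level. Its log2 change was 0.71 ± 0.21 (SE; limma adjusted p = 0.00294), and without tumor replicate 2 it was no longer called (adjusted p = 0.106). Macrophage transcripts stood high in the same tumor libraries, and their part in the inhibitor values was not tested.

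The direction of most members depended on how the libraries were scaled, and Il4ra and Cish were called higher under every scaling tried. TPM are shares of a total, and the median log2 change of all tested genes moved with the scaling, being 0.23 as deposited, -0.05 by median ratios, -0.54 with equal totals, -0.45 by upper quartile and 2.11 on T cell identity genes. Il4ra changed by 1.58, 0.99, 1.10 and 4.03 in log2 under these 4 other scalings, in that order. Cish changed by 1.24, 0.72, 0.82 and 3.39. Il7r kept its call by median ratios (0.62) and on T cell identity genes (3.12) but not with equal totals (0.03) or by upper quartile (0.14). Socs2 kept its call only on T cell identity genes (2.67), and stood at 0.41 by median ratios, -0.13 with equal totals and -0.02 by upper quartile. The call of Stat5a was likewise kept only on T cell identity genes (2.62), with 0.30, -0.25 and -0.14 under the others in that order. Stat5b was called lower by median ratios (-0.77), with equal totals (-1.32) and by upper quartile (-1.22), and called higher on T cell identity genes (1.60).

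With equal totals, Il2rb, Il2rg, Il21r, Jak3 and Stat5b were called lower, 5 of 10 against 51.3% of all tested genes, and 2 were called higher against 21.0%. The upper quartile gave the same counts, against 49.0% and 23.7%. Scaled on T cell identity genes, all 10 were called higher, with changes of 1.60 to 4.03 in log2, but so were 94.9% of all tested genes. Relative to the median of all genes in the deposited TPM, Il4ra stood at 1.67, Cish at 1.29 and Il7r at 0.72 in log2. On the same footing Il2rb stood at -0.02, Jak3 at -0.22 and Stat5b at -0.69.

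**Figure D2:**
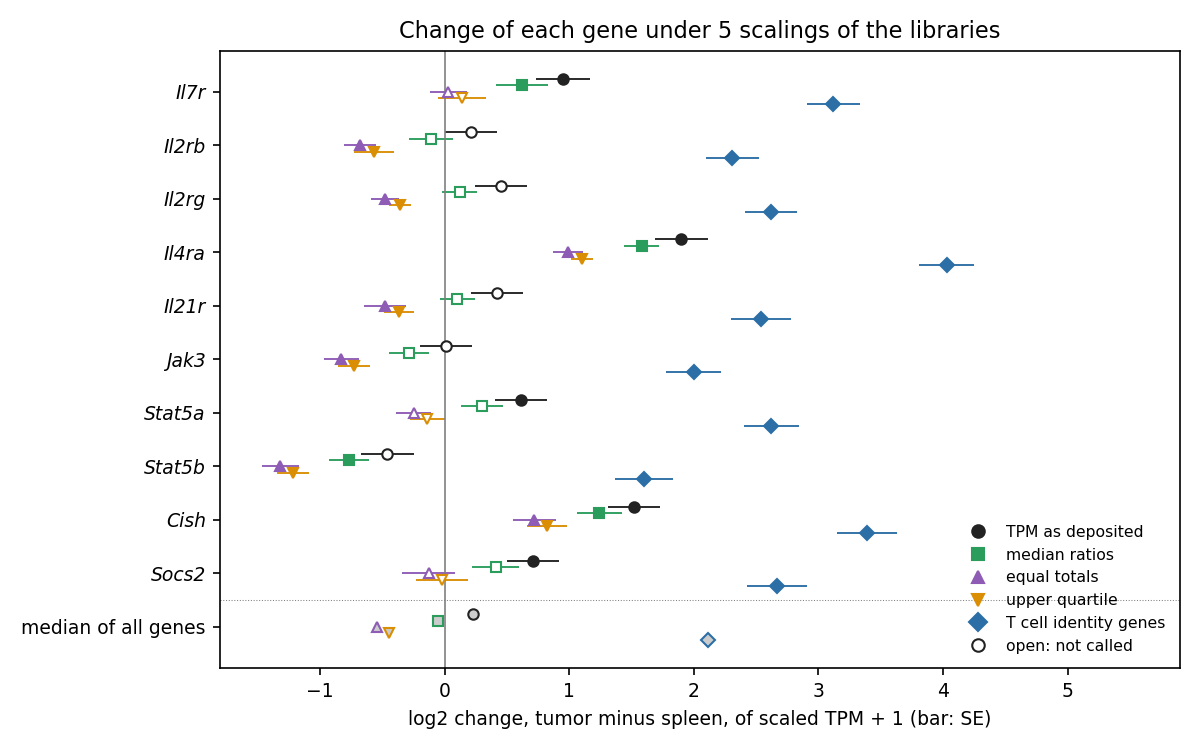
Log2 change of each gene, tumor minus spleen, with its SE, for TPM as deposited and under 4 scalings. Filled symbols were called at an adjusted p below 0.05, open ones were not, and grey symbols in the bottom row give the median of all tested genes. Il4ra and Cish lie right of 0 throughout, from 0.99 to 4.03 and from 0.72 to 3.39.

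Ratios of TPM between genes of a library do not depend on its scaling, and 10 pairs were compared. Differences and tests used log2 of (TPM + 1), where the added 1 weighs on low genes. The Stat5a to Stat5b ratio of TPM was 1.25 and 0.989 in tumor against 0.491, 0.498 and 0.514 in spleen. The spleen libraries were close to each other, and both tumor libraries lay far above them, with a difference of 1.07 in log2 of (TPM + 1). The Il4ra to Il2rg ratio was 0.597 and 0.624 in tumor against 0.229, 0.218 and 0.206 in spleen (difference 1.45). The Cish to Stat5b ratio was 0.968 and 0.888 in tumor against 0.185, 0.207 and 0.188 in spleen (difference 1.98). Socs2 to Stat5b stood at 1.10 and 0.719 in tumor and 0.483, 0.259 and 0.390 in spleen (difference 1.17). Cish to Socs2 was 0.880 and 1.23 in tumor against 0.383, 0.797 and 0.482 in spleen (difference 0.81).

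Among the receptors, Il7r to Il2rg was 1.34 and 1.02 in tumor against 0.811, 0.996 and 0.690 in spleen, so that spleen replicate 2 came close to tumor replicate 3. Il21r to Il2rg overlapped, at 0.205 and 0.261 in tumor and 0.213 to 0.254 in spleen. Il2rb to Il2rg was 0.179 to 0.182 in all spleen libraries and 0.181 in tumor replicate 2, against 0.131 in tumor replicate 3. Jak3 to Il2rg was 0.0617 and 0.0535 in tumor against 0.0749 to 0.0815 in spleen (difference -0.44). The ratio of Il2ra, a further receptor chain, to Il2rb was 1.57 and 1.70 in tumor against 1.30, 1.17 and 1.10 in spleen (difference 0.45). The exact permutation test of the log2 ratios, two-sided, gave p = 1 for Il21r to Il2rg and p = 0.2 for the other 9 pairs, the smallest value that 2 against 3 libraries allow. With 0.1 and 10 added in place of 1, the Cish to Stat5b difference was 2.23 and 0.99, that of Stat5a to Stat5b was 1.14 and 0.64, and that of Socs2 to Stat5b was 1.27 and 0.67. For Il2rb to Il2rg, whose plain TPM ratios overlapped, the exact test gave p = 0.4 with 0.1 added. Adjusted over the 10 pairs, the smallest value of this exact test was p = 0.222, so no ratio could pass the threshold in this design.

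**Figure D3:**
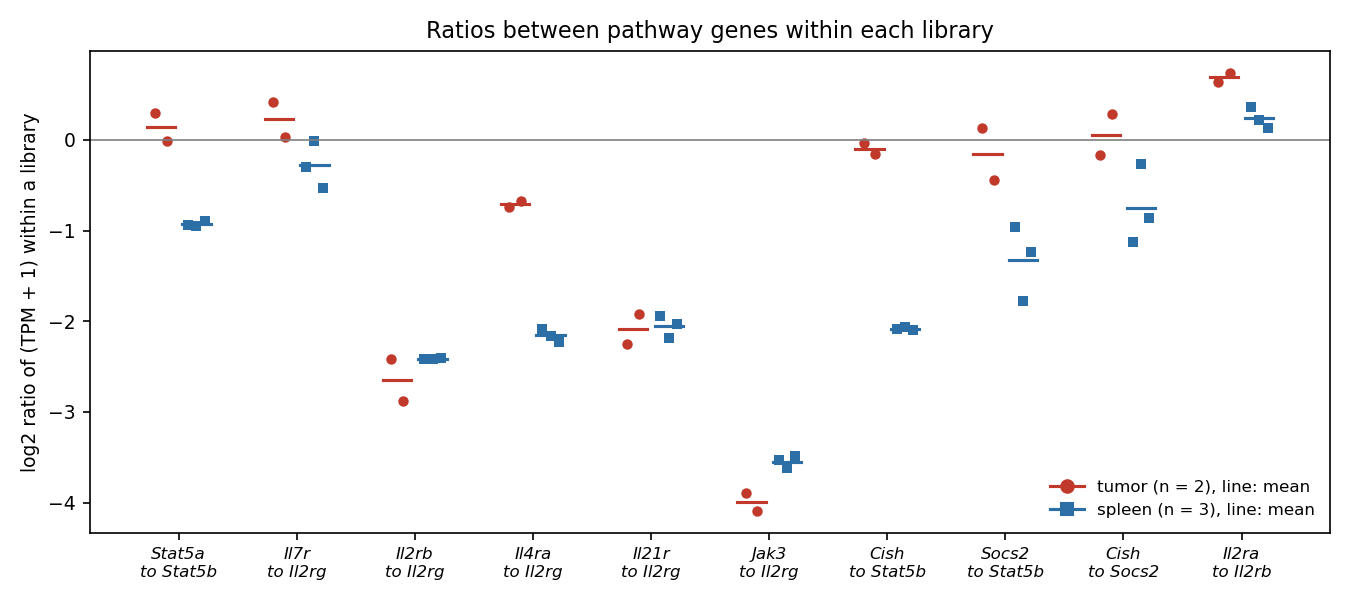
Log2 ratio of (TPM + 1) between pairs of pathway genes in each library, with tumor libraries (red circles, n = 2) left of spleen libraries (blue squares, n = 3) and lines at the means. Stat5a to Stat5b, Il4ra to Il2rg and Cish to Stat5b separate the tissues by 1.07, 1.45 and 1.98, while Il21r to Il2rg overlaps.

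Levels were also placed among all genes above 0 in the same library. Il7r and Il2rg ranked near the top everywhere, Il7r at percentiles 98.0 and 97.4 in tumor and 98.4 to 99.0 in spleen, and Il2rg at 97.3 in both tumor libraries and 98.9 to 99.1 in spleen. Il4ra ranked at 95.3 and 95.5 in tumor against 91.3 to 91.8 in spleen. Cish had the greatest upward difference among the 10, at 69.2 and 69.7 in tumor against 51.0, 58.6 and 53.7 in spleen. Stat5b had the greatest downward one, at 69.8 and 71.7 in tumor against 84.4, 87.2 and 85.4 in spleen. By TPM, which is per transcript length, the order in tumor was Il7r, Il2rg, Il4ra, Il21r and Il2rb with no overlap between neighbours. Stat5a, Stat5b, Cish, Socs2 and Jak3 followed, each overlapping the next. In spleen, Il2rg and Il7r overlapped at the top, and Il21r, Il4ra, Il2rb and Stat5b followed, each overlapping the next. Jak3 and Stat5a then overlapped, and Socs2 and Cish came last without overlap.

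The genes with the most similar profiles were found by the Euclidean distance of centred log2(TPM + 1) over the 5 libraries. Usp47, Tm9sf3 and Eif3k lay nearest to Il2rg, at distances of 0.0335, 0.0652 and 0.0701 log2 units among 6926 genes searched. Zfp866, Nfatc1 and Rpl37 lay nearest to Stat5b, at 0.0683, 0.0710 and 0.0759. Ufc1, Trak1 and Prr13 lay nearest to Cish, at 0.0850, 0.0877 and 0.0924. The 5 libraries come from 2 tissues only, so these distances rest on few points.

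Around these members, 37 further pathway genes in 5 lists were examined, of which 34 were tested, 24 were called higher, 6 lower and 4 were not called, against 40.9% higher and 18.1% lower among all tested genes. The 34 genes' median log2 change was 1.42, beside 0.23 over all tested genes. The lists were chosen with earlier results of these data known, so these shares are a description and no test of the pathway. Of the 7 cytokine genes, Il2, Il9 and Tslp were below the filter on low values. Il15, the cytokine that activated myeloid cells present to lymphocytes, had 108 and 98.2 TPM in tumor against 2.32, 2.91 and 2.31 TPM in spleen (log2 change 4.89 ± 0.21, SE; limma adjusted p = 4.4e-26). Il21, made by helper T cells, had 0.713 and 0.582 TPM in tumor against 3.71, 2.11 and 3.48 TPM in spleen, all within the background level (log2 change -1.29, limma adjusted p = 2.3e-06). Il4 was the other cytokine gene called lower, at 0.506 and 0.857 TPM in tumor against 1.88, 2.43 and 2.54 TPM in spleen, also within the background level. Il7 was not called.

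Of 5 other receptor chains 4 were called higher and 1 lower, against 40.9% and 18.1% of all tested genes. Without the call of Il2ra, 3 were higher. Il2ra, the chain that gives the interleukin-2 receptor its high affinity, had 47.0 and 39.7 TPM in tumor against 24.6, 31.5 and 25.3 TPM in spleen (log2 change 0.66, limma adjusted p = 0.00606). The tissues did not overlap, but the gene no longer passed without tumor replicate 2 (adjusted p = 0.15), without spleen replicate 3 (0.0626) and with the replicate block (0.0523). Il2ra stood at 0.34 by median ratios, -0.25 with equal totals and -0.13 by upper quartile, and passed in none of these. Il13ra1, which pairs with the Il4ra chain outside the lymphocyte lineage, had 37.8 and 42.8 TPM in tumor against 0.328 to 0.569 TPM in spleen (log2 change 4.80, limma adjusted p = 1.2e-25). Il15ra and Crlf2 were the others called higher, at 2.30 and 2.69 in log2. Il9r fell by 1.20 in log2, at 0.383 and 0.682 TPM in tumor against 2.30 to 2.76 TPM in spleen, under the background level throughout.

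Among 6 other kinases and STATs, 5 were called higher and 0 lower in limma's test, with 1 lower at an unadjusted p below 0.05, against 40.9% and 18.1% of all tested genes called higher and lower. Jak2, a kinase of many cytokine receptors, had the largest change, with 107 and 113 TPM in tumor against 21.6 to 28.1 TPM in spleen (log2 change 2.12, limma adjusted p = 1.4e-12). Stat6, the STAT of interleukin-4, changed by 0.95, and Stat3, used by interleukin-21, by 1.88. Stat6 was not called with equal totals (0.04, adjusted p = 0.82) or by upper quartile (0.15, adjusted p = 0.28). Stat3 overlaps Stat5a on the opposite strand. Jak1, the partner of Jak3, had 59.0 and 72.5 TPM in tumor against 70.1, 126 and 83.6 TPM in spleen, a log2 difference of -0.46 that missed the threshold (limma adjusted p = 0.0688). Jak1 was called lower without spleen replicate 1 (-0.64, limma adjusted p = 0.00444) and at a mean of at least 5 TPM (adjusted p = 0.0447). The replicate block, which gives the same estimate as leaving out spleen replicate 1, also called it lower (limma adjusted p = 0.0349). Jak1 was also lower by median ratios (-0.79), with equal totals (-1.38) and by upper quartile (-1.27), and higher on T cell identity genes (1.69).

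All 7 other inhibitors were called higher, against 40.9% of all tested genes, with a median log2 change of 1.48 and a range of 0.67 to 3.32, and 0 were lower in limma's test, also at an unadjusted p below 0.05. Socs3, an inhibitor of STAT3-activating receptors, had 146 and 156 TPM in tumor against 12.0, 16.8 and 14.2 TPM in spleen (log2 change 3.32, limma adjusted p = 3.4e-19). Ptpn6, the phosphatase SHP-1, had 146 and 158 TPM in tumor against 49.6 to 60.3 TPM in spleen (log2 change 1.48, limma adjusted p = 2.4e-08). Of the 7, 6 were called higher by median ratios, with equal totals and by upper quartile alike, against 33.2%, 21.0% and 23.7% of all tested genes. The gene not called there was Pias1, an inhibitor of activated STATs, whose call was also lost with the replicate block (adjusted p = 0.112) and without tumor replicate 3 (adjusted p = 0.166).

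Of 12 genes known as STAT5 targets 7 were called higher and 3 lower, against 40.9% and 18.1% of all tested genes, and Myc and Ccnd2 were not called. The list's median log2 change was 1.57. Ccnd2 (-0.41) was called lower without spleen replicate 1 (limma adjusted p = 0.00965), by median ratios, with equal totals and by upper quartile. The replicate block, with the same estimate as without spleen replicate 1, also called it lower (limma adjusted p = 0.0478). Myc (0.42) was called higher without spleen replicate 2 (adjusted p = 0.0246). Osm, a cytokine gene, rose most, to 210.0 and 207 TPM in tumor against 2.21 to 3.92 TPM in spleen (log2 change 5.72, limma adjusted p = 2.7e-28). Mcl1, a survival factor, had 775 and 825 TPM in tumor against 69.6 to 83.7 TPM in spleen (log2 change 3.36, limma adjusted p = 6.4e-20). Bcl2, the survival gene that interleukin-7 maintains in T cells, fell most, to 5.32 and 4.92 TPM in tumor against 19.1, 32.0 and 23.4 TPM in spleen (log2 change -2.05, limma adjusted p = 1.2e-11). Targets of the list thus moved both ways in the deposited TPM. On T cell identity genes 11 of 12 were called higher and 0 lower in limma's test, also at an unadjusted p below 0.05, while 94.9% of all tested genes were higher and 0.871% lower. Under that scaling Bcl2 stood at -0.06, Il21 at -0.05 and Il9r at -0.03, with none of these called. The macrophage marker sum was 4480 and 5018 TPM in the same tumor libraries against 16.8 to 19.3 TPM in spleen, and its part in these 5 lists was not tested.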

How the data were processed

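The deposited values, 1 per gene symbol and library, were taken as TPM: they are not whole numbers and sum to less than 1000000 per library. Per the submitters' processing notes, kallisto, DESeq2 and mm10 were used, without stated versions or roles. The sources used here do not say how transcripts were summed to genes. Because TPM are shares of a total, differences in the unlisted share shift all listed genes together.

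Groups followed the sample titles. The test was limma 3.58.1 in R 4.3.3 on log2(TPM + 1), with tissue as the only term and a mean-variance trend, for the 12979 genes averaging 1 TPM or more. P-values were two-sided and Benjamini-Hochberg adjusted over all of these, with calls below 0.05. With 3 residual and 44.1 prior degrees of freedom, each gene's error was drawn largely from genes at similar levels. The test was run on simulated data, where few genes changed and as many rose as fell. Noise there was normal and independent, with the variances that the same model had estimated. The simulation therefore cannot show whether those variances or that form of noise hold for these libraries. It also does not show how the test's calls behave when many genes change, mostly in the same direction, as here. Fold changes on this scale understate the change of low genes. Pairs of genes were compared by exact permutation in scipy 1.17.1. Positions and transcripts are from the GENCODE annotation of GRCm38, promoters from RefSeq, and coding sequences were aligned with Biopython 1.88.

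The members, lists, named genes and alternatives were chosen with earlier results of these data known. Named by rule were all members, and of each further list the gene highest in each tissue and the called genes that rose and fell most. The rule also took the 3 genes nearest in profile to Il2rg, Stat5b and Cish averaging 3 or more in log2(TPM + 1). Other genes were named after their values were seen. The result of 1 gene that the rule names is not reported here. Replicate numbers 2 and 3 occur in both tissues with no statement that they mark a shared mouse, and were not used to pair libraries.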

Additional observations from a re-analysis of the deposited data

How the results depend on the processing

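Pseudocounts of 0.1 and 10, no filter on low values and no mean-variance trend changed no call or direction of the 10 members. The size of low genes' changes did move: with a pseudocount of 10, Cish stood at 0.69, Socs2 at 0.37, Stat5a at 0.35 and Stat5b at -0.30. The difference between tissues in the log2 ratio of Cish to Socs2 was then 0.32, beside 0.81 with 1 added. Other settings did change calls or directions. Each scaling divides all genes of a library by the same factor, and the higher filter and stricter threshold change the genes tested or the cut-off. For leaving out libraries and for the block, the cause was not tested. Members called higher numbered 3 by median ratios, 2 with equal totals, 2 by upper quartile and 10 on T cell identity genes, and members called lower 1, 5 and 5 in the first 3 of these. For all genes the higher calls were 2724, 3078 and 12316 with equal totals, by upper quartile and on T cell identity genes. The lower calls were 3920 by median ratios and 6662, 6366 and 113 under those 3. At a mean of at least 5 TPM 1456 genes were lower, and at an adjusted p below 0.01 1552.

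By median ratios Il2rb changed by -0.11, Jak3 by -0.29, Stat5a by 0.30, Stat5b by -0.77 and Socs2 by 0.41 in log2. With equal totals Il7r changed by 0.03, Il2rb by -0.68, Il2rg and Il21r by -0.48 each, Jak3 by -0.83, Stat5a by -0.25, Stat5b by -1.32 and Socs2 by -0.13. On the upper quartile these were 0.14 for Il7r, -0.57 for Il2rb, -0.36 for Il2rg, -0.37 for Il21r, -0.73 for Jak3, -0.14 for Stat5a, -1.22 for Stat5b and -0.02 for Socs2. On T cell identity genes Il2rb changed by 2.31, Il2rg by 2.62, Il21r by 2.54, Jak3 by 2.00 and Stat5b by 1.60. At a mean of at least 5 TPM, where fewer genes are tested, Il2rg (0.45) was called higher and Stat5b (-0.46) lower, 1 member. At an adjusted p below 0.01 Stat5a (0.61) was not called.

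Of the further lists, the cytokines had 2 genes higher and 0 lower on T cell identity genes, and 0 lower at a mean of at least 5 TPM. Other receptor chains had 0 lower in both of these settings. Other kinases and STATs had 3 higher with equal totals and by upper quartile. In that list 1 was lower by median ratios, with equal totals, by upper quartile, at a mean of at least 5 TPM and with the replicate block. STAT5 targets had 11 higher and 0 lower on T cell identity genes.

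With each library left out in turn, the remaining tumor library then being taken to vary as the spleen libraries do, members called higher ranged from 3 (without tumor replicate 2) to 7 and members lower from 0 to 1. All genes lower ranged from 1209 (without tumor replicate 2) to 2623, and other kinases and STATs lower from 0 to 1. The log2 change ranged from 0.33 to 0.57 for Il2rg, 0.20 to 0.65 for Il21r, -0.10 to 0.09 for Jak3, 0.48 to 0.75 for Stat5a, -0.59 to -0.30 for Stat5b and 0.56 to 0.86 for Socs2. Jak3 was at -0.03 without tumor replicate 2 and -0.10 without spleen replicate 1. The Il21r to Il2rg ratio changed by -0.20 to 0.14, being 0.14 without tumor replicate 2 and 0.03 without spleen replicate 1. With 1 tumor library the ratios had no exact test.

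The replicate number as a block left 4 members higher, with Stat5a at 0.48 and not called and Jak3 at -0.10. Because number 1 occurs only in spleen, the block gives the same log2 changes as leaving out spleen replicate 1. It is therefore no separate check of their direction or size. Deviations of same-numbered libraries correlated across genes at 0.20 for number 2 and 0.07 for number 3, beside 0.19 for tumor 3 with spleen 1. With 2 tumor libraries, each value of tumor 2 is the negative of that of tumor 3, so these values cannot show pairing. With only 2 numbers shared, same-numbered libraries were not taken as pairs. Ranked among tested genes only, percentile differences between tumor and spleen were -1.39 for Il7r, -9.70 for Il2rb, -2.44 for Il2rg, 6.01 for Il4ra, -6.74 for Il21r, -10.58 for Jak3, -21.62 for Stat5b and 23.42 for Cish. Without counts, the precision of low genes such as Jak3, Cish and Socs2 cannot be stated beyond the spread of these libraries.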
